A study of Mus musculus with 2 samples.

Results

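Hippo signalling was examined through the transcripts of 10 genes in cells sorted from the embryonic mouse kidney by an endothelial reporter. The 10 genes were the coactivators Yap1 and Wwtr1 (which encodes the protein TAZ), the DNA-binding factors Tead1, Tead2, Tead3 and Tead4, the kinases Lats1 and Lats2, and the angiomotins Amotl1 and Amotl2. They are 10 of 18193 genes that the array annotation names. The array measures them with 23 probe sets, groups of short probes for a transcript, namely all those that the annotation gives to exactly 1 of these genes. The rule itself used no measured value. There was 1 group with 2 arrays, each from RNA of GFP-positive cells sorted from CD-1 mouse kidneys at E15.5 (Theiler stage 23). The mice carried a transgene in which the Tie2 promoter drives GFP, and Tie2 (Tek) is a receptor of endothelial cells that some blood cells are also known to use. Per the labels each array represents a pool of about 5 to 10 kidneys, and the RNA went through 2 rounds of amplification. Sample titles carry the name FLK1, another endothelial receptor, and endothelium of renal artery and vein is the source named, although whole kidneys were dissociated. Separate litters are not named for the pools, and the spread between arrays may be technical. With 1 group there is no contrast between conditions and no test.

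In the Hippo pathway a chain of kinases ends in LATS1 and LATS2, which phosphorylate YAP and TAZ. Phosphorylated YAP and TAZ are held in the cytoplasm by 14-3-3 proteins or degraded, whereas the unphosphorylated proteins enter the nucleus and activate genes together with TEAD factors. Angiomotins bind YAP and TAZ at cell junctions and on actin filaments and also help LATS kinases act on them. In endothelium, YAP and TAZ are known for their part in the sprouting of vessels. The arrays measured transcripts, so the phosphorylation and location of these proteins were not observed.

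Values are the deposited intensities (arbitrary units), first of replicate 1 and then of replicate 2. A probe set was counted above background if it exceeded 199 on replicate 1 and 204 on replicate 2, the 95th percentile of 86 probe sets for olfactory, vomeronasal and taste receptor genes. Probe sets were not ranked against each other by intensity, since their sequences set how brightly each binds. Differences between the arrays are log2 of replicate 1 minus log2 of replicate 2 after the arrays were centred on a shared median. Over all 22388 probe sets above background this difference had an SD of 0.51. All 10 endothelial marker genes were above background, beside 61.2% of all named genes. Among them were Tek at 15908 and 21499, Kdr at 8939 and 12139, and the junctional cadherin Cdh5 at 22435 and 20733. Pecam1, also in this list, gave 1257 and 2247. Markers listed for other cells were above background for 9 of 10 stromal, 4 of 7 mural and 8 of 8 macrophage genes. So were 2 of 5 nephron progenitor, 3 of 7 epithelial and 2 of 4 podocyte genes. The mural share (57.1%) lay near the 61.2% of all named genes. The nephron progenitor, epithelial and podocyte shares lay below it, in lists of few genes. The podocyte genes above background were Podxl (29868 and 30060) and Synpo (1012 and 2346). Nphs1 was below both limits and Wt1 exceeded that of replicate 2 alone. Whether podocytes gave the Podxl signal was not tested. The summed intensity of the 8 macrophage genes was 75892 and 91459, with Csf1r at 34029.5 and 36806. The part of macrophages in the levels of the 10 genes was not tested.

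All 10 genes were above background on both arrays, beside 61.2% of all named genes. Of their 23 probe sets 21 were, beside 55.1% of all probe sets with 1 gene. A gene was represented by its brightest probe set, which favours genes with many probe sets. When the median probe set stood for each gene instead, all 10 were still above background, beside 53.6% of all genes. The genes were chosen with earlier results of these data known, so these counts are a description of the 10 genes.

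**Figure D1:**
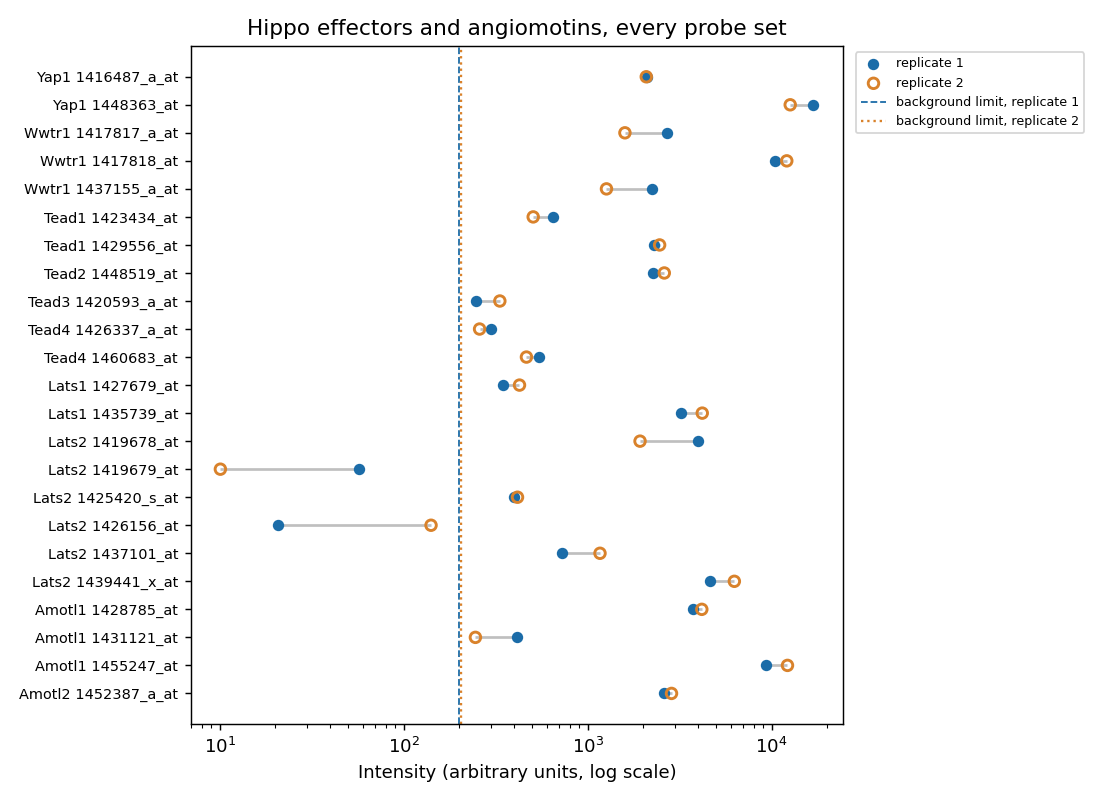
Intensity (arbitrary units, log scale) of each of the 23 probe sets of the 10 genes in replicate 1 (filled) and replicate 2 (open), with the background limit of each array as a vertical line. Only 2 probe sets, both of Lats2, lie left of the limits, and 5 of the other 21 lie under 2 times the limit on some array, among them that of Tead3.

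Both coactivators were well above background with every probe set. Yap1, the effector that LATS kinases restrain, gave 16872 and 12637 with probe set 1448363_at, which is 84.8 and 62.0 times the limits. Its other probe set, 1416487_a_at, gave 2112 and 2085. The first was 1.36-fold higher in replicate 1 (0.45 in log2, an SD of 0.32 over n = 2) and the second differed by 1.04-fold, so neither moved further than the spread of all probe sets. Wwtr1, the paralogue of Yap1, gave 10396 and 12103 with 1417818_at. Its other probe sets gave 2686 and 1596 (1417817_a_at) and 2226 and 1267 (1437155_a_at). These 2 were 1.72-fold and 1.80-fold higher in replicate 1 (SDs of 0.55 and 0.60 in log2, n = 2), while the brightest probe set was 1.14-fold higher in replicate 2, so the probe sets of Wwtr1 do not give the gene a shared direction. The suffix "_a_at" marks probes that match several transcripts of the same gene, and which transcripts these are was not analysed here.

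The TEAD factors carry YAP and TAZ to DNA, and all 4 were above background, but not all by a wide margin. Tead1 gave 2300.0 and 2464 with 1429556_at and 649 and 506 with 1423434_at. Tead2, which is known for its early use in mouse embryos, gave 2258 and 2613 with its only probe set, a difference of 1.13-fold. Both genes stayed over 2 times the limit on each array. Tead4, known for its part in the first cell fate choice of the mouse embryo, gave 544 and 465 with 1460683_at and 299 and 259 with 1426337_a_at. Tead3 gave 246 and 333 with its only probe set, 1.24 and 1.64 times the limits. Tead3 was therefore the gene of the 10 nearest to background, and it was below 2 times the limit on both arrays and below the 99th percentile (307 and 232) on replicate 1 alone. None of the 6 TEAD probe sets differed between the arrays by more than 1.33-fold.

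Among the kinases, the probe sets of Lats2 differed in direction between the arrays. Lats1 gave 3205 and 4202 with 1435739_at and 348 and 427 with 1427679_at, both slightly higher in replicate 2 (1.28-fold and 1.20-fold). Lats2 has 6 probe sets, of which 4 were above background. Its 1439441_x_at gave 4619 and 6279, 1437101_at gave 729.5 and 1168, and 1425420_s_at gave 398 and 416. These 3 were higher in replicate 2, by 1.33-fold, 1.57-fold and 1.02-fold, the last of which changed sign with quantile normalization. Its 1419678_at gave 3960 and 1929 and was 2.10-fold higher in replicate 1 (an SD of 0.76 in log2, n = 2), a difference larger than in 96.2% of all probe sets above background. This was the 1 member probe set of 21 over 2-fold apart (4.76%), beside 4.99% of all probe sets above background.
The remaining Lats2 probe sets were below both limits, 1419679_at at 57.6 and 10.1 and 1426156_at at 20.9 and 141. According to the annotation, 1419678_at and 1419679_at were designed from the same source sequence, yet only 1419678_at exceeded the limits. The suffixes "_s_at" and "_x_at" mark probes that may also match other genes, so the 2 Lats2 probe sets with these suffixes are uncertain. A further probe set that the annotation gives to Lats2 together with another gene was left out by the rule. Without these suffixes Lats2 was represented by 1419678_at and still above background.

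Both angiomotins were above background with each of their probe sets. Amotl1, a junctional protein that binds YAP, gave 9368 and 12211 with 1455247_at, 3753 and 4178 with 1428785_at, and 416 and 246 with 1431121_at. The first and second were 1.28-fold and 1.09-fold higher in replicate 2, whereas the third, which lay at 1.20 times the limit in replicate 2, was 1.73-fold higher in replicate 1. Amotl2, which links VE-cadherin to actin filaments in endothelial cells, gave 2614 and 2859.8 with its only probe set. It was 1.07-fold higher in replicate 2, well within the spread of all probe sets.

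Across the 21 member probe sets above background the median difference was -0.07 and the SD 0.48, close to the 0.02 and 0.51 of all probe sets above background. In all, 9 were higher in replicate 1 and 12 in replicate 2, and 16 (76.2%) lay within 1.5-fold, beside 78.7% of all probe sets. Among the 7 genes with several probe sets above background, 4 had probe sets of both signs (Wwtr1, Tead1, Lats2 and Amotl1). Over the brightest probe sets alone, 8 of the 10 genes were higher in replicate 2 with a median of -0.18, beside 0.04 over all genes above background. None of the 10 was over 2-fold apart, beside 2.22% of genes over 2-fold higher in replicate 1 and 2.6% in replicate 2.

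Markers of renal stroma differed far more between the arrays than these genes. By the brightest probe sets, all 9 stromal markers above background were over 2-fold higher in replicate 2, beside 2.6% of all genes above background. Their median difference was -1.88, and the summed intensity of the 10 markers was 25981 and 88592. The remaining marker, Tcf21, was above the limit on 1 array, replicate 2 (186 and 352). Among dimmer probe sets, 1446326_at of Col1a2 (635 and 509) was above both limits and 1.27-fold higher in replicate 1. Col1a1 1423669_at (217 and 76.7) exceeded the limit of replicate 1 alone. These markers, like all lists, were chosen with earlier results of these data known. The 4 mural markers above background were also higher in replicate 2, with a median of -0.61. Of the others, Des was below both limits, whereas Tagln and Myh11 exceeded that of replicate 2 alone, and the summed intensity of the 7 mural markers was 6640 and 11360. In bulk samples fewer cells of a type and less RNA per cell cannot be told apart. The part of stromal or mural cells in the levels of the 10 genes was not tested.

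**Figure D2:**
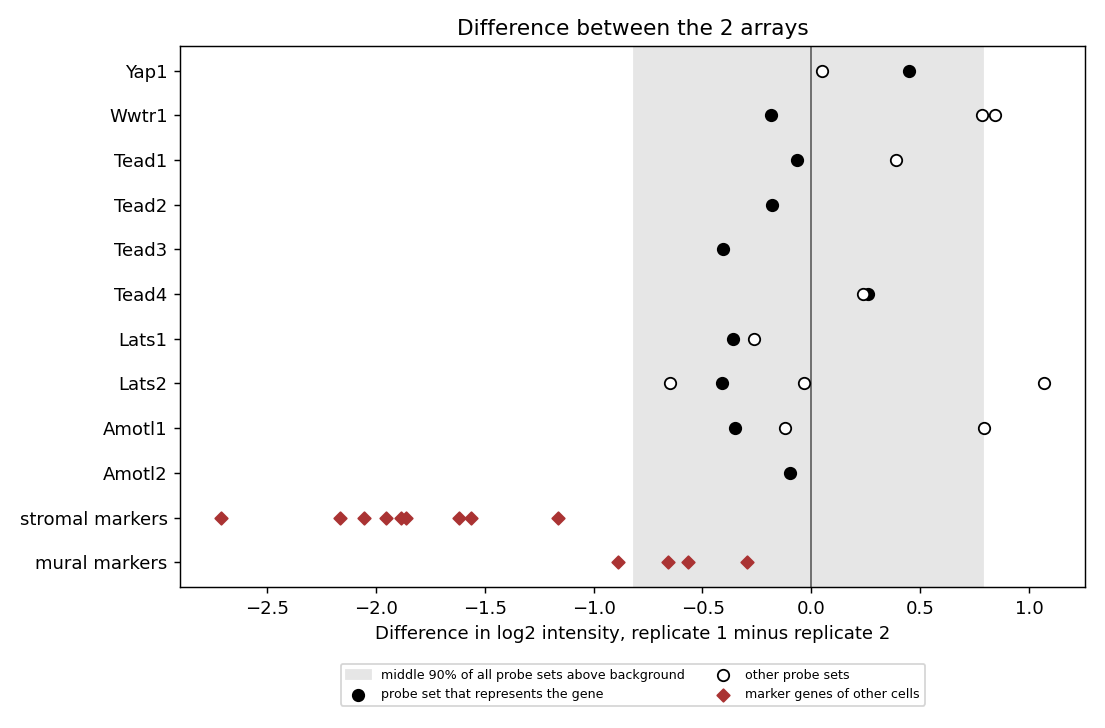
Difference in log2 intensity, replicate 1 minus replicate 2, of each member probe set above background (filled, the one that represents the gene, and open, the others) and of stromal and mural marker genes (diamonds), with the middle 90% of all probe sets above background in grey. The Lats2 probe set at 1.07 lies beyond the grey band, which ends at 0.789 on the right. An open point of Wwtr1 (0.845) and, just past the edge, that of Amotl1 (0.791) also lie beyond it. The 9 stromal markers, by their brightest probe sets, lie between -2.71 and -1.16.

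The sequences before the start sites of these genes were searched for the core motif of TEAD factors, CATTCC, which reads GGAATG on the other strand, since several genes of the pathway are known to be targets of YAP and TAZ themselves. Windows from RefSeq (GRCm38.p6) cover 250 bases before to 50 bases after a start site. They were given for 8 of the 10 genes, in 12 windows, and not for Tead1 and Tead4. The motif was in windows of 5 of the 8 genes (62.5%), namely Yap1, Wwtr1, Tead3, Lats2 and Amotl2, beside 16.6% of all 27025 genes with a window. Counted by window it was in 7 of 12 (58.3%), beside 14.7% of 32851. Windows of Wwtr1 and of Tead3 overlap, and the motif stood at 8 distinct places in all, 4 of them in Tead3. The windows of Amotl1, Lats1 and Tead2 did not hold these letters. Of the known target genes of YAP and TAZ listed below, 7 of 16 with a window held the motif (43.8%). These were Lats2 and Amotl2, which are in both sets, and Ccn1, Ankrd1, Axl, Crim1 and Ptpn14. A match describes the letters of a window and is no evidence of binding. The stretches with the motif in capitals are shown, 5′ to 3′ on the strand of the gene, to let its setting be compared between the effectors, the feedback genes and Ccn1, a well known target. They are 100 bases long where the stretch lies before every annotated start of the gene and otherwise 30.
Yap1, chr9:8004685-8004784, minus strand: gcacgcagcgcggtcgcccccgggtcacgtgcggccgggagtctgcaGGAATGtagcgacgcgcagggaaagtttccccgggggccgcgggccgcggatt
Wwtr1, chr3:57575994-57576093, minus strand: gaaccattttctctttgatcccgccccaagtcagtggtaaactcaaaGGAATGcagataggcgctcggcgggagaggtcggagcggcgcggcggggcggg
Ccn1, chr3:145650036-145650135, minus strand: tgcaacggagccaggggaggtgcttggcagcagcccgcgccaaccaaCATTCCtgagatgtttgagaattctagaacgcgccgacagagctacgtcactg
Tead3, chr17:28350701-28350730, minus strand: ccgggctCATTCCgtaCATTCCggccatcc
Amotl2, chr9:102717727-102717756, plus strand: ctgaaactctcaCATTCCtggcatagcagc
Lats2, chr14:57746102-57746131, minus strand: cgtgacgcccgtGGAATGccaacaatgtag
The motif began 141 bases before the start site in Yap1, 170 before the downstream start site in Wwtr1, 103 in Ccn1 and 65 in Amotl2. In Tead3 the first copy of the pair began 123 bases before the start site of its window, and downstream of another Tead3 start site. In Lats2 the motif began 4 bases after the upstream of its start sites with a window. Each position is counted from the start site of the window that holds the motif.

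The genes listed as upstream regulators regulate LATS or YAP and TAZ. Almost all were above background, 24 of 26 measured genes, beside 61.2% of all genes. Stk4, a kinase that activates LATS, gave 10217 and 14349 with 1436015_s_at, whose probes may also match other genes. Its other probe sets gave 1678 and 1550 (1434159_at) and 572 and 659 (1421107_at), of which the first was higher in replicate 1. Sav1, the scaffold of Stk4, gave 5761 and 4391 with its brightest probe set. Mob1a and Mob1b, which hold LATS in its active form, gave 18149 and 17920, and 1147 and 1416. The exceptions were kinases that can act on LATS beside Stk4, Taok2 at 212 and 99.2 and Mink1 at 307 and 103, which exceeded the limit of replicate 1 alone. When the median probe set stood for a gene, 19 of the 26 were above background, beside 53.6% of all genes. By the brightest probe sets none of the 24 was over 2-fold apart between the arrays, beside 2.22% of all genes in replicate 1 and 2.6% in replicate 2, and their median difference was 0.08. Another probe set of Wwc2, 1417197_at, lay at the 2-fold mark (426 and 217), and was named after its values were seen. Nf2, the tumour suppressor Merlin that brings LATS to the membrane, gave 5147 and 4104 with the brightest of its 4 probe sets.

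Of the 14-3-3 genes, whose proteins hold phosphorylated YAP and TAZ in the cytoplasm, 6 of 7 were above background, beside 61.2% of all genes. By the brightest probe sets, Ywhab gave 60829 and 54429.7, Ywhae gave 38969 and 36701, and Ywhah gave 22829 and 19515. Ywhag gave 25581 and 30681 with 1450012_x_at, whose probes may also match other genes. It gave 7688 and 6054 with 1420817_at, higher in replicate 1, and 382 and 480 with 1420816_at. Ywhaz gave 28817 and 33223 with its brightest probe set, 1.13-fold higher in replicate 2. Another probe set of Ywhaz, 1439005_x_at (2996 and 1139), was 2.69-fold higher in replicate 1, and was named after its values were seen. Its probes may also match other genes. Sfn, the form known from epithelia, was below the limits at 76.6 and 47.9. Of the Vgll genes, whose proteins bind TEAD factors at the surface that YAP and TAZ use, 3 of 4 were above background, beside 61.2% of all genes. Only 1 of the 4 was above background at the 99th percentile or at 2 times the limit. Vgll4, known as an inhibitor of the YAP and TEAD complex, gave 752 and 764. Vgll3 gave 297 and 456 and Vgll2 gave 247 and 242, both close to the limits, and Vgll1 was below them at 29.9 and 63.8. Another probe set of Vgll3, 1430596_s_at (228 and 479), was 2.05-fold higher in replicate 2.

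Proteins known to bind angiomotins were all above background at the transcript level, 10 of 10, beside 61.2% of all genes. They included Amot, the founding angiomotin, at 7766 and 9970.1, Mpdz at 13279.6 and 13016, Mpp5 (Pals1) at 1672 and 1868, and Patj at 311 and 212. Patj, a polarity protein of tight junctions, was closest to the limits, and with the median of each gene's probe sets 8 of the 10 were above background, beside 53.6% of all genes. Cdh5 and Nf2, whose values are given above, are also in this list.

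**Figure D3:**
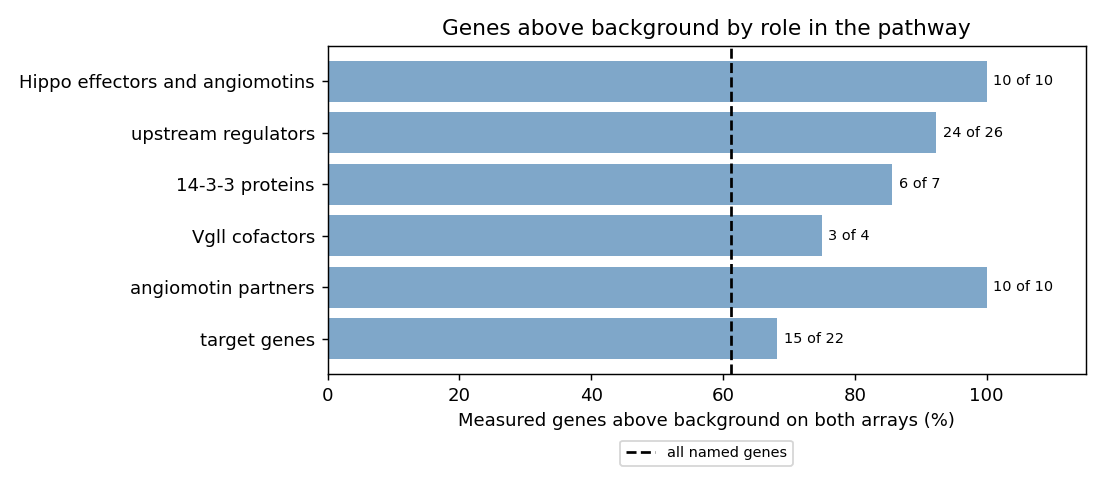
Share of measured genes above the limits of both arrays (%) for the 10 genes and for each list of pathway genes (bars, with counts at the right) and for all named genes (dashed line at 61.2%). The lists run from 15 of 22 target genes to 10 of 10 angiomotin partners.

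Known target genes of YAP and TAZ, taken from work on human and mouse cell lines, were above background in 15 of 22 cases (68.2%), beside 61.2% of all genes, so the share lay near that of all genes. Lats2 and Amotl2 belong to this list as well as to the 10 genes. Ccn1, a secreted matrix protein, gave 9855 and 7065 with its brightest probe set, and all 4 of its probe sets were above background. Ccn2, its paralogue, gave 772 and 2434 with its only probe set. Ankrd1, a target much used as a readout in cell lines, was below both limits at 81.0 and 72.1. Others below both limits were Myof (159.9 and 87.9), the clotting initiator F3 (6.30 and 10.6) and Foxf2 (70.0 and 51.8), as was Nt5e (145 and 161), which was named after its values were seen. Gadd45a exceeded the limit of replicate 2 alone (139 and 469.9), while of the 2 probe sets of Crim1 the brighter, at 201 and 203, exceeded that of replicate 1 alone and the other, at 142 and 277, that of replicate 2 alone. The receptor tyrosine kinase Axl gave 1489.8 and 2337.

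Of the 15 target genes above background 11 were higher in replicate 2, with a median difference of -0.13. By the brightest probe sets, only Ccn2 was over 2-fold apart, 3.08-fold higher in replicate 2, a difference with no replicate check, beside 2.6% of all genes in that direction. Among their other probe sets above background, 1452761_a_at of Rbms3 (422 and 1179) was 2.74-fold higher in replicate 2, and 1419678_at of Lats2, described above, was 2.10-fold higher in replicate 1. Rbms3 was named after its values were seen. The stromal markers moved the same way, Pdgfra by 6.54-fold and Col3a1 by 2.95-fold. The probe sets of Ccn1 did not share a direction. Of the 4, 1442340_x_at and 1457823_at were 1.43-fold and 1.44-fold higher in replicate 1, while 1416039_x_at and 1438133_a_at were 1.31-fold and 1.72-fold higher in replicate 2. The part of stromal cells in the Ccn2 difference was not tested.

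**Figure D4:**
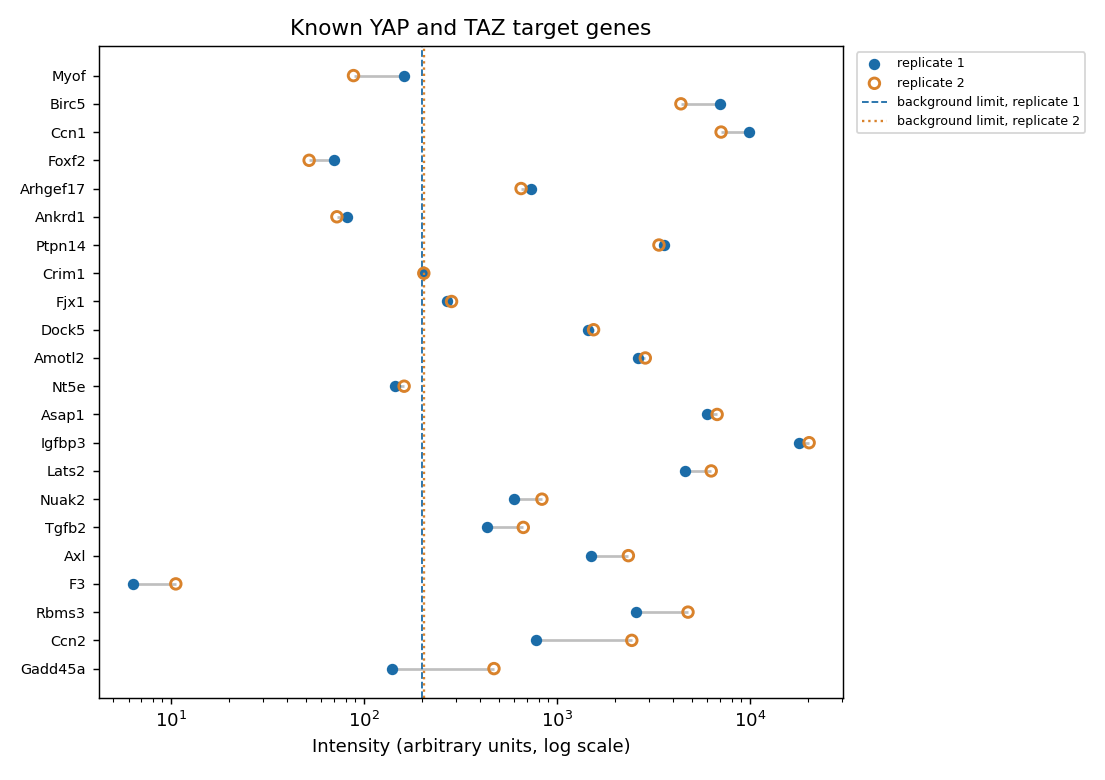
Intensity (arbitrary units, log scale) of 22 known YAP and TAZ target genes in replicate 1 (filled) and replicate 2 (open), each by its brightest probe set, ordered from the gene furthest toward replicate 1 at the top to that furthest toward replicate 2, with the background limits as vertical lines. Ccn2, at 772 and 2434, has both points right of the limits and the widest gap of the genes that do, while Ankrd1 and F3 lie left of them.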

How the data were processed

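The authors deposited 1 intensity per probe set and array, on a linear scale, for 45101 probe sets of an Affymetrix 3' expression array. The submitters' processing notes name GCOS with no version, and no source used here names the genome build behind the probe sets. Means after leaving out 2% of values at each end were 1500.01 on both arrays, so the arrays had been scaled alike. Since the published methods give a different array and a single round of amplification, they were not applied to these arrays. No detection calls were used here. For the Actb control, the 3' probe set gave 3.15 times the 5' one on replicate 1 and 3.67 times on replicate 2. The part of this bias in differences between probe sets of the same gene was not tested.

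Genes were named from 34945 probe sets with 1 gene in the platform annotation. Counts and log2 differences were computed with Python 3.11.15, numpy 2.4.6 and pandas 2.3.3, with no pseudocount and after removing an offset of -0.03, and the code was tested on simulated data. The number of arrays limits the precision. The 10 genes and all lists were chosen with earlier results of these data known. Named genes were all 10 members, up to 6 genes of each list on the minority side of the limit, the first 4 on the other side, up to 6 over 2-fold apart, the targets Ccn1, Ccn2 and Ankrd1, and endothelial, stromal and mural markers. Stk3 has no probe set with 1 gene and was not analysed here. Alternatives were other limits, other choices of probe set, each array alone, no centring, quantile normalization, no filter and a pseudocount of 50.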

Additional observations from a re-analysis of the deposited data

How the results depend on the processing

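The count of member genes above background was 8 to 10 and that of member probe sets 16 to 21 under the alternatives, and 10 and 21 on either array alone. The low values were 8 genes with plain suffixes only, a rule that leaves just 8 genes to count, and 16 probe sets at 2 times the limit. Upstream regulators ranged from 19 to 26, target genes from 13 to 18 and angiomotin partners from 8 to 10. The count of Vgll genes fell to 1 of 4 at the 99th percentile and at 2 times the limit, and that of 14-3-3 genes was 3 with plain suffixes only, where 4 of the 7 genes have such a probe set. Without a filter 3 member probe sets were over 2-fold apart, since the 2 dim probe sets of Lats2 joined 1419678_at. The median member difference lay between -0.12 and -0.07. The 63 recomputed differences of single member probe sets moved by at most 0.105 in log2. Of them 1 changed sign, that of the Lats2 probe set 1425420_s_at (0.03 with quantile normalization). Leaving out the centring shifts all differences equally, and no alternative adds an array, so small moves are no replicate check. No difference between the arrays could be computed with either array left out. Near the limits, at intensities as low as those of Tead3, Vgll2 and Crim1, calls depend on the limit chosen.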
